A study of Bos taurus with 6 samples.

Results

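Genes of the actin cytoskeleton and its contractile machinery, with serum response factor (SRF) and its muscle cofactor myocardin, were followed in bovine deep zone articular chondrocytes that were made to express the transcription factor CREB5. The set was a list of 45 symbols covering actins, myosins, tropomyosins, calponins, filamins, focal adhesion linkers, SRF and MYOCD, of which 44 were matched by symbol among the 27607 genes of the expression table; PDLIM7 was not analysed here. The chondrocytes, from the cartilage layer next to the bone, had been infected with a lentivirus carrying doxycycline-inducible bovine CREB5 and selected in G418. Every group carried this virus and spent 3 days on low attachment plates in medium with 10% FBS, with TGFb2 at 20 ng/ml plus 100 ng/ml of TGFa. Dox- cells had no doxycycline (3 libraries) and Dox+ cells had it at 1 µg/ml, per the labels' treatment protocol (3 libraries). Cells were taken from 3 knees, each collected independently, infected cells were not stated to be cloned, and neither uninfected cells nor cells given doxycycline without the CREB5 virus were analysed here, so CREB5 and the drug cannot be told apart.

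Actin filaments built from beta- and gamma-actin give a chondrocyte its shape, and myosin II pulls on them to make tension. SRF is a DNA-binding factor that drives many of these genes. It works with myocardin-related factors that leave the cytoplasm when free actin monomer runs low, and in smooth muscle with myocardin itself, which turns on contractile genes such as ACTA2, TAGLN, CNN1 and MYH11. Chondrocytes that flatten in culture or meet TGF-beta are known to raise contractile genes of this kind, while round chondrocytes keep them low.

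Depth ranged from 20063379 reads (Dox+ 3) to 122366790 reads (Dox+ 2), and 3 reads were worth between 1.32 and 6.98 normalized counts, for counting error only. The level of CREB5 ran from 308 to 510 normalized counts without doxycycline and from 12413 (Dox+ 2) to 21964 with it, as the labels of all 6 libraries say. Of 12 tested chondrocyte markers, 1 was called higher and 3 were called lower with limma (6 lower with the block), and their summed level was 158528 to 313217 in Dox- and 104705 to 123163 in Dox+ libraries. The 44 matched genes held between 0.94% and 1.32% of the counts in Dox- libraries and between 0.836% and 1.04% in Dox+ libraries. In bulk RNA, fewer cells making a transcript and less of it per cell cannot be told apart.

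The comparison of Dox+ with Dox- cells asks how forced CREB5 alters these genes. Most of the set did not pass the test, while 5 genes rose and 1 fell. FILIP1, MCAM, MYOCD, TES and FILIP1L were higher in Dox+ cells, and smooth muscle actin, ACTA2, was lower. These calls are limma's at an adjusted p under 0.05 over all 13180 genes with a mean of at least 10 normalized counts, with fold changes on the scale of log2(normalized count + 1). Among the 41 members tested, 12.2% were called higher and 2.44% lower, against 2.52% and 0.357% of all genes tested. The list was chosen with earlier results of these data known. Its shares here and below therefore describe the list only and were not tested against those of all genes. MYH11, SYNPO2 and PDLIM3 lay under the filter. With the library number as a block, MYL9 and CALD1 were also lower and CSRP2 also higher, so 9 members (22%) were called, against 6.51% of all genes. By direction, the block gave 6 higher (14.6%, against 4.86% of all genes) and 3 lower (7.32%, against 1.65%). On recovered reads edgeR called 5 members, where it called 2.6% of all genes, and DESeq2 called 10, where it called 5.33%. At an unadjusted p under 0.05 limma had 13 of the 41 members, against 10.6% of all tested genes, the share to hold beside the counts at that threshold given for single roles and lists. The median log2 fold change over the tested members was -0.02, beside -0.0036 over all genes, and 32 of the 41 estimates lay within 1 of 0.

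**Figure D1:**
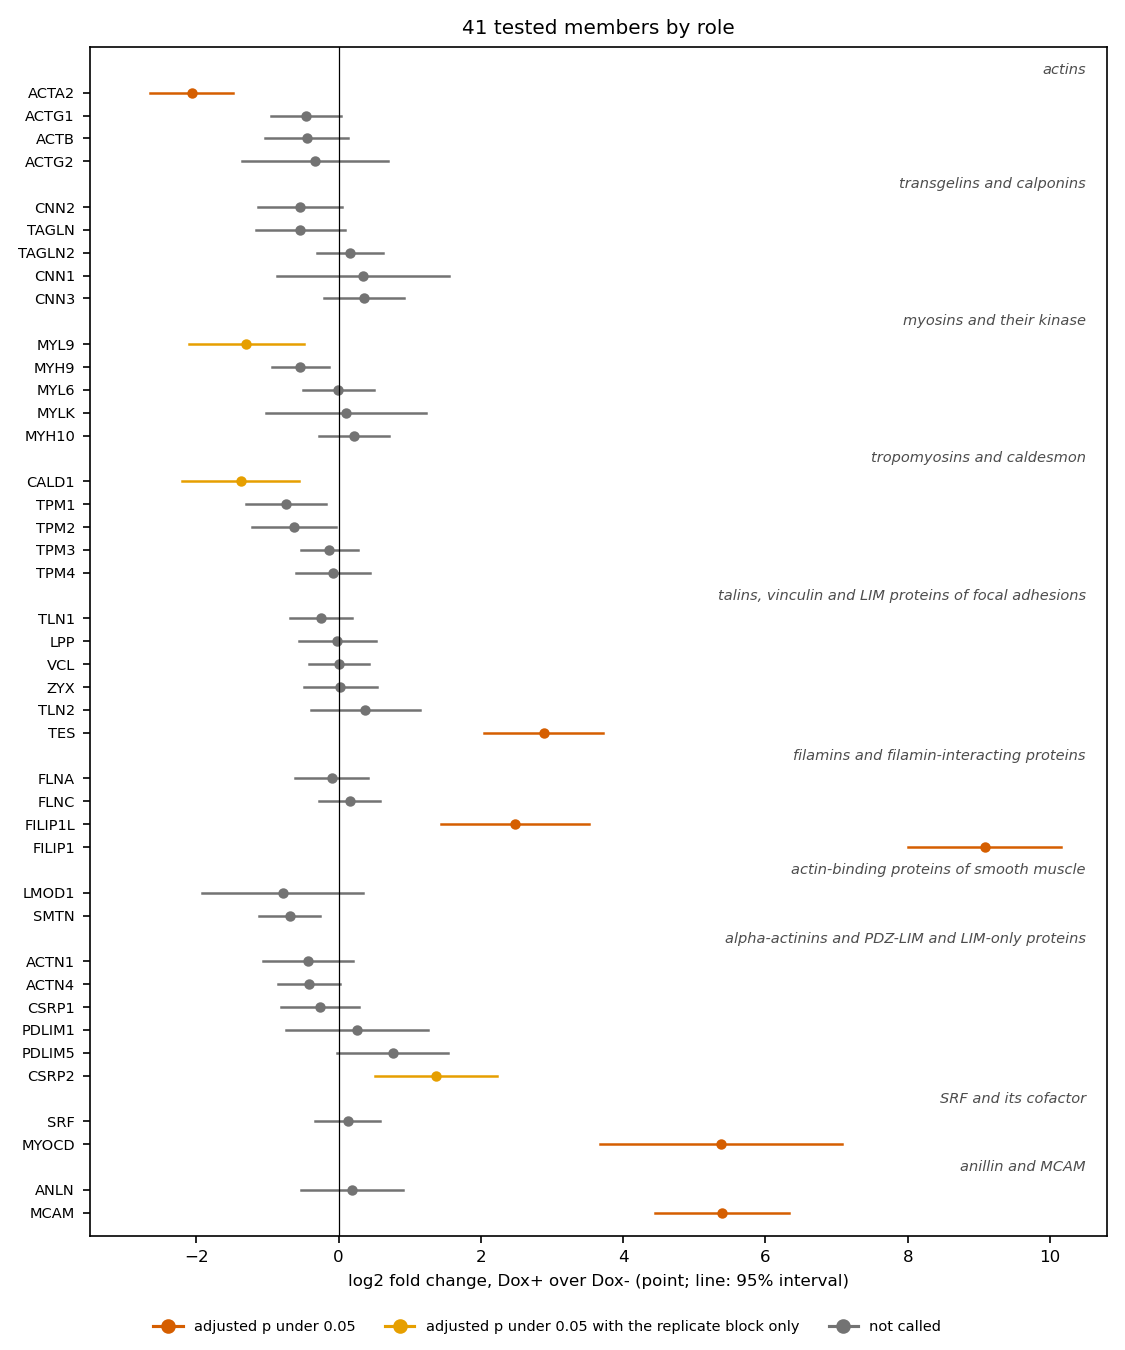
Log2 fold change of Dox+ over Dox- (horizontal axis) for the 41 tested members, in groups by role, with the point as limma's estimate and the line as its 95% interval. Orange marks the 6 called members, yellow the 3 called with the replicate block only and grey the rest; FILIP1 lies far to the right at 9.08 and ACTA2 is the lowest at -2.06.

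Without asking for a call, 9 of the 41 tested members (22%) had every Dox+ library below every Dox- library, as did 6.29% of all tested genes. These were ACTA2, ACTB, ACTG1, MYL9, MYH9, TPM1, CALD1, SMTN and ACTN4. Every Dox+ library stood above every Dox- library in 6 members (14.6%, against 8.88% of all tested genes), which were TES, FILIP1, FILIP1L, CSRP2, MYOCD and MCAM. These shares describe the list and were not tested.

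Of the 4 actins, ACTA2, the smooth muscle alpha-actin that marks myofibroblasts, fell and the others did not pass. ACTA2 (ENSBTAG00000014614) was 1247, 1238 and 1942 normalized counts in Dox- 1, 2 and 3, against 423, 309 and 312 in Dox+ 1, 2 and 3. The groups were far apart, with the lowest Dox- library well above the highest Dox+ library. The fall was 4.18-fold (log2 fold change -2.06, SE 0.26, limma adjusted p = 0.0031), ACTA2 ranked 48 among all falls, and the call held under each of 20 alternatives (adjusted p 8.3e-16 to 0.031). ACTB, the beta-actin of all cells, was 67248, 72713 and 118132 in Dox- and 61833, 57694 and 64075 in Dox+ libraries. Its groups did not overlap, but the gap between them was narrow and 1 library, Dox- 3, was much higher than the rest. ACTB did not pass (log2 fold change -0.45, 95% interval -1.03 to 0.14, limma adjusted p = 0.67). Neither did ACTG1, the gamma-actin partner of ACTB (-0.46, interval -0.95 to 0.04), nor ACTG2, the enteric smooth muscle actin (-0.33, interval -1.36 to 0.70). Actins are a family of closely related genes, and no source used here says how the counting divided reads that matched more than 1 of them, so their levels are uncertain to that extent.

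Taken within each library, which needs no scaling between libraries, ACTA2 was 1.85%, 1.70% and 1.64% of ACTB in Dox- 1, 2 and 3. In Dox+ 1, 2 and 3 it was 0.684%, 0.536% and 0.486%. The ratio was 3.05 times lower on average in Dox+ cells and varied less within the Dox- group than ACTA2 itself, since Dox- 3 was high in both genes. The ratio was chosen after the values were seen and was not tested.

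**Figure D2:**
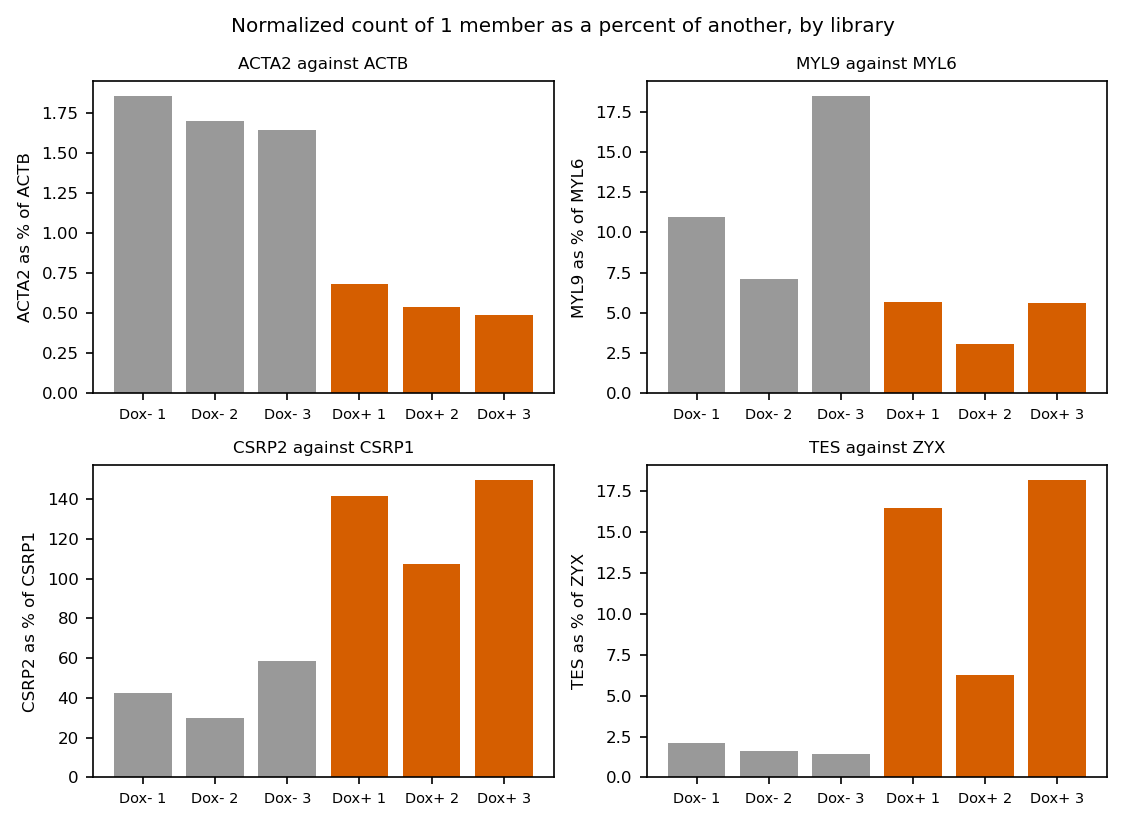
Normalized count of 1 member as a percent of another (vertical axis, from 0) in each of the 6 libraries, with Dox- bars grey and Dox+ bars orange, for ACTA2 against ACTB, MYL9 against MYL6, CSRP2 against CSRP1 and TES against ZYX. Each of the 4 ratios separates the groups: the Dox+ libraries are lower for ACTA2 (at most 0.684%) and MYL9 (at most 5.66%) and higher for CSRP2 (at least 107%) and TES (at least 6.28%). ACTA2, MYL9, CSRP2 and TES each separated the groups by their own level already, and no ratio was tested.

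Transgelins and calponins bind along actin filaments, and TAGLN and CNN1 are standard markers of smooth muscle and of SRF activity. None of the 5 passed in limma, with 0 at an unadjusted p under 0.05 and 0 called by edgeR or DESeq2. TAGLN was 4618, 3610 and 6932 in Dox- and 4381, 2725 and 3156 in Dox+ libraries, and Dox+ 1 lay above Dox- 2. Its log2 fold change was -0.54 (interval -1.17 to 0.09, limma adjusted p = 0.60). CNN1, calponin 1, was 329, 117 and 464 in Dox- and 525, 203 and 344 in Dox+ libraries, so the groups overlapped widely. Its estimate, 0.34 (interval -0.87 to 1.56), turned to -0.23 without Dox- 2. CNN2, TAGLN2 and CNN3 lay between -0.55 and 0.35.

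Myosin II is a motor of heavy chains, regulatory light chains and essential light chains, and MYLK is the kinase that switches it on in smooth muscle. None of the 5 tested members passed in limma, with 2 at an unadjusted p under 0.05, 0 called by edgeR and 1 by DESeq2. MYL9, the regulatory light chain of smooth muscle and nonmuscle myosin, was 1892, 1716 and 4525 in Dox- and 1127, 809 and 1081 in Dox+ libraries. All Dox+ libraries were lower, while Dox- 3 stood far above the other Dox- libraries. MYL9 did not pass (log2 fold change -1.30, SE 0.36, limma adjusted p = 0.13), but passed with the block (SE 0.25, adjusted p = 0.011). Over 20 alternatives its adjusted p was 5.7e-06 to 0.37, and without Dox- 3 the estimate was -0.86.

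The essential light chain MYL6, which carries no phosphorylation switch, had a log2 fold change of -0.0031 (interval -0.50 to 0.49). MYL9 was 11.0%, 7.12% and 18.5% of MYL6 in Dox- and 5.66%, 3.07% and 5.60% in Dox+ libraries. The nonmuscle heavy chain MYH9 was 24676, 29939 and 28366 in Dox- and 19380, 17417 and 20269 in Dox+ libraries, without overlap. MYH9 did not pass (-0.54, SE 0.18, limma adjusted p = 0.23), and neither did its relative MYH10 (0.21, interval -0.28 to 0.71) or MYLK, at 16.3 to 35.6 normalized counts over the 6 libraries. MYH11, the heavy chain that defines mature smooth muscle, had 6, 0 and 0 reads in Dox- and 5, 2 and 0 in Dox+ libraries.

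Tropomyosins lie in the groove of the actin filament, and caldesmon, from CALD1, holds them there and restrains myosin. All 5 estimates were below 0, and none passed in limma, with 3 at an unadjusted p under 0.05, 0 called by edgeR and 1 by DESeq2. CALD1 was 10160, 8939 and 25597 in Dox- and 5568, 5026 and 4730 in Dox+ libraries. Dox+ libraries were close to each other and below all Dox- libraries, of which Dox- 3 stood far above the others. CALD1 did not pass (log2 fold change -1.38, SE 0.36, limma adjusted p = 0.11), but passed with the block (SE 0.29, adjusted p = 0.018); without Dox- 3 the estimate was -0.90, and over 20 alternatives the adjusted p was 2e-08 to 0.40. TPM1, a tropomyosin made by nearly all cells, was 19066, 24661 and 35908 in Dox- and 15032, 13861 and 17455 in Dox+ libraries. The groups did not overlap, yet TPM1 did not pass either (-0.74, SE 0.25, limma adjusted p = 0.25, or 0.053 with the block). TPM2 had an estimate of -0.63, TPM3 of -0.13 and TPM4 of -0.08.

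Focal adhesions couple the actin cytoskeleton to integrins through talin and vinculin, and LIM proteins such as zyxin and testin gather there under tension. Of 6 tested members, TES rose and the other 5 did not pass. TES (ENSBTAG00000021204), which encodes testin, was 136, 111 and 153 in Dox- 1, 2 and 3, against 1223, 551 and 1393 in Dox+ 1, 2 and 3. Every Dox+ library was several times above every Dox- library, and Dox+ 2, the Dox+ library with the least CREB5, had the least TES. The rise was 7.37-fold (log2 fold change 2.88, SE 0.37, limma adjusted p = 0.0035, range 1.9e-25 to 0.033 over 20 alternatives).

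Its partner ZYX, zyxin, was 6454, 6821 and 10832 in Dox- and 7410, 8771 and 7662 in Dox+ libraries, with a log2 fold change of 0.02 (interval -0.49 to 0.53). TES was therefore 1.41% to 2.10% of ZYX in Dox- and 6.28% to 18.2% in Dox+ libraries. The core linkers TLN1 and VCL had estimates of -0.24 (interval -0.68 to 0.19) and 0.0058 (interval -0.41 to 0.42), and TLN2 and LPP had 0.37 and -0.02.

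Filamins are long rods that cross-link actin filaments into a gel, and FILIP1 and FILIP1L are related proteins named for binding filamin A or for likeness to a binder. Both rose, while the filamins did not pass. FILIP1 (ENSBTAG00000000053) had 0, 0 and 1 reads in Dox- 1, 2 and 3, against 426, 1375 and 250 reads, or 721, 607 and 581 normalized counts, in Dox+ 1, 2 and 3. The gene went from almost no reads to a level that was alike in all Dox+ libraries, including Dox+ 2 with its lower CREB5. The ratio of pooled reads was 2460 (95% counting interval 441 to 97210), and FILIP1 ranked 7 among all rises (log2 fold change 9.08, limma adjusted p = 3.1e-05, and 1.5e-57 to 0.0018 over 20 alternatives). With 1 read in the Dox- group the fitted value moved with the setting, from 6.94 with a pseudocount of 5 to 11.1 with DESeq2. RefSeq's annotation of ARS-UCD2.0 has a long noncoding RNA gene overlapping FILIP1.

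FILIP1L (ENSBTAG00000013664) was expressed before induction, at 477, 327 and 1299 normalized counts in Dox- 1, 2 and 3, and reached 2701, 2960 and 4414 in Dox+ 1, 2 and 3. The library numbered 3 was the highest of its group on both sides, and the groups stayed apart. The rise was 5.58-fold (log2 fold change 2.48, SE 0.46, limma adjusted p = 0.022, falling to 0.00026 with the block). It was not called without Dox- 2 (adjusted p = 0.060), without Dox+ 1 (0.056), without Dox+ 3 (0.14), in edgeR (0.052) or without limma's trend (0.079), within a range of 3.8e-48 to 0.14 over 20 alternatives. CMSS1, a protein-coding gene that overlaps FILIP1L in RefSeq's annotation of ARS-UCD2.0, was 283 to 337 in Dox- and 291 to 356 in Dox+ libraries. FLNA, filamin A, was 29075, 31113 and 46825 in Dox- and 31545, 31564 and 34754 in Dox+ libraries (log2 fold change -0.10, interval -0.61 to 0.41), and the muscle filamin FLNC had 0.16 (interval -0.27 to 0.58).

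**Figure D3:**
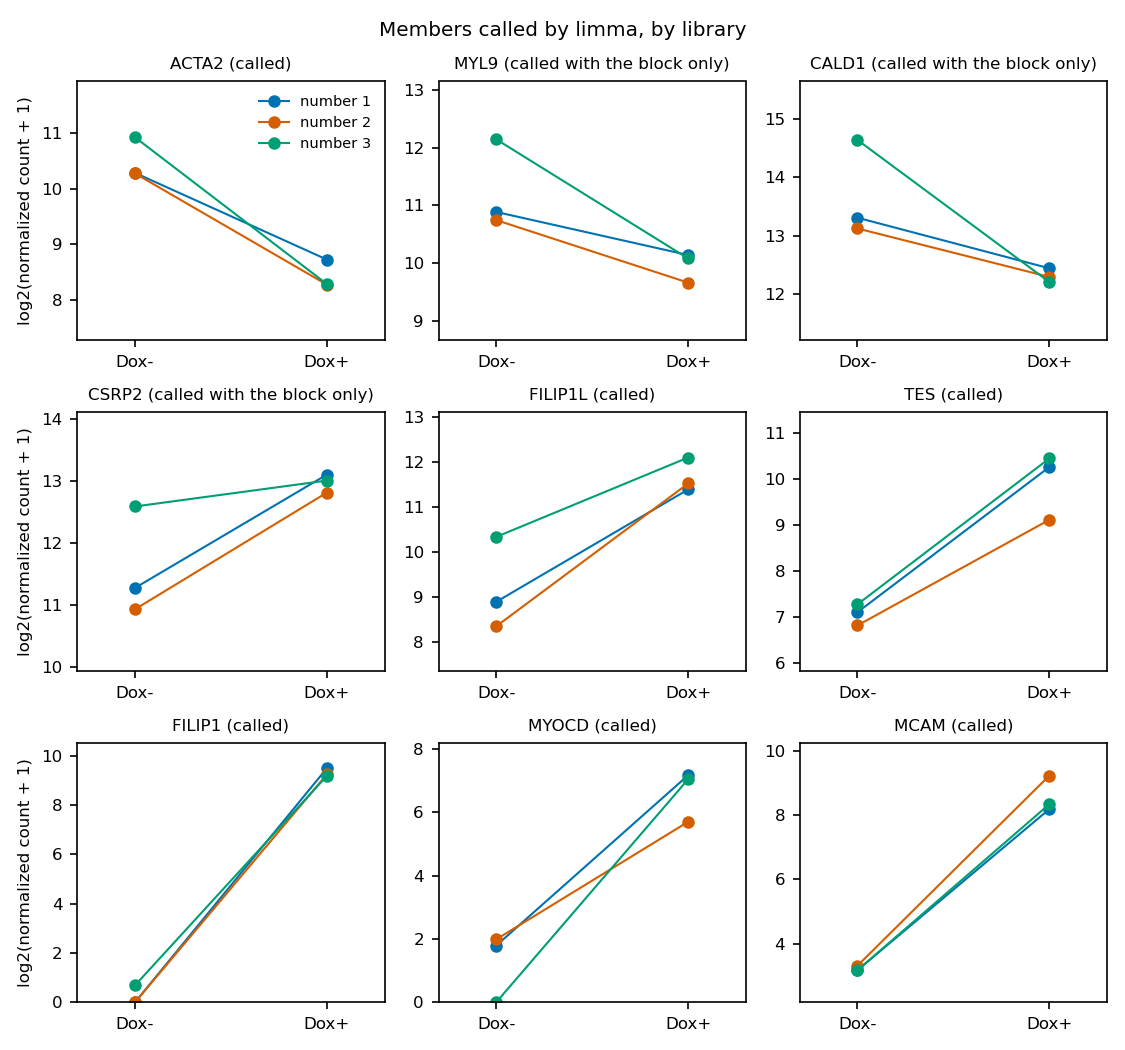
Level as log2(normalized count + 1) (vertical axis, with its own range in each panel) of the 9 members called by limma with or without the replicate block, in Dox- and Dox+ libraries; lines join libraries of the same number. ACTA2, MYL9 and CALD1 go down in each of the 3 pairs and the other 6 go up in each, with CSRP2 the flattest in pair 3 (0.42).

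Actin-binding proteins typical of smooth muscle did not pass in limma. Of the 2 tested, 1 had an unadjusted p under 0.05, 0 were called by edgeR and 1, SMTN, by DESeq2 (adjusted p = 0.044). SMTN, smoothelin, was 4504, 4555 and 5242 in Dox- and 3579, 2808 and 2551 in Dox+ libraries, without overlap (log2 fold change -0.69, SE 0.19, limma adjusted p = 0.13, or 0.063 with the block). LMOD1, a leiomodin that starts new filaments, was 53.3, 126 and 160 in Dox- and 52.5, 89.1 and 44.2 in Dox+ libraries, which overlapped (-0.78, interval -1.91 to 0.35). SYNPO2, a filament-bundling protein of muscle, had 17, 0 and 5 reads in Dox- and 10, 15 and 4 in Dox+ libraries, too few to pass the filter.

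Alpha-actinins cross-link filaments, PDZ-LIM proteins dock on alpha-actinin, and the cysteine-rich LIM proteins CSRP1 and CSRP2 bind both. Of the 6 tested, none passed in limma, with 1 at an unadjusted p under 0.05, 0 called by edgeR and 1 by DESeq2. CSRP2, a LIM-only protein of vascular smooth muscle, was 2477, 1951 and 6154 in Dox- and 8788, 7189 and 8220 in Dox+ libraries. Dox+ libraries were all higher and close together, while Dox- 3 came near them. CSRP2 did not pass (log2 fold change 1.38, SE 0.38, limma adjusted p = 0.13); it passed with the block (0.013) and without Dox- 3 (0.0029), within a range of 1.4e-27 to 0.42 over 20 alternatives. CSRP1 did not follow it, with an estimate of -0.26 (interval -0.81 to 0.28). CSRP2 was 42.7%, 30.1% and 58.6% of CSRP1 in Dox- and 142%, 107% and 149% in Dox+ libraries.

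ACTN1 and ACTN4, the nonmuscle alpha-actinins, had estimates of -0.43 and -0.42, PDLIM1 had 0.26 and PDLIM5 0.76 (interval -0.02 to 1.54). PDLIM3, a muscle PDZ-LIM protein, had 3 reads in Dox- 1 and 0 in each other library.

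SRF itself was 1026, 984 and 1383 in Dox- and 1230, 1215 and 1214 in Dox+ libraries. Dox+ libraries were almost equal and lay inside the Dox- range (log2 fold change 0.13, interval -0.33 to 0.58, limma adjusted p = 0.91). MYOCD (ENSBTAG00000035706), the cofactor that commits cells to smooth muscle genes, rose from a near absence of reads. It had 4, 2 and 0 reads in Dox- 1, 2 and 3, against 84, 115 and 56 reads in Dox+ 1, 2 and 3, which was 2.45, 2.96 and 0 against 142, 50.8 and 130 normalized counts. All Dox- values lay near the floor of 3 reads, and Dox+ 2 was the lowest Dox+ library, as it was for CREB5 and TES. Whether the levels of MYOCD and TES follow that of CREB5 was not tested. The ratio of pooled reads was 51.0 (95% counting interval 23.1 to 140.2), and the log2 fold change was 5.37 (SE 0.75, limma adjusted p = 0.0059). The estimate was 4.74 without Dox- 3, 4.54 with the block and without the libraries numbered 3, 3.96 with a pseudocount of 5, and at most 6.20 over 20 alternatives. Without Dox+ 3 the adjusted p was 0.056, within a range of 5.4e-14 to 0.056 over those alternatives. RefSeq places a protein-coding gene without a name across MYOCD, and without a stated strand setting reads of overlapping genes cannot be told apart, which holds for FILIP1 and FILIP1L too.

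Set beside MYOCD, none of the smooth muscle genes ACTA2, TAGLN, CNN1 and MYL9, which it is known to activate, was called higher by limma with or without the block. ACTA2 fell, and the estimates were -0.54 for TAGLN, 0.34 for CNN1 and -1.30 for MYL9. MYH11 lay under the filter. Other muscle genes followed here went both ways. CSRP2 (1.38) and DES, the gene of desmin, were higher with the block only. SMTN (-0.69) and LMOD1 (-0.78) had estimates below 0 and were not called by limma.

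Of the last pair, MCAM rose and ANLN did not pass. MCAM (ENSBTAG00000006835), the adhesion molecule CD146 of pericytes, endothelium and some progenitor cells, was 7.97, 8.87 and 7.95 in Dox- 1, 2 and 3, against 293, 606 and 326 in Dox+ 1, 2 and 3. Dox- libraries were nearly equal, and Dox+ 2 was the highest, the reverse of its place for TES and MYOCD. The rise was 41.9-fold (log2 fold change 5.39, SE 0.41, limma adjusted p = 0.00021, range 6.8e-38 to 0.0047 over 20 alternatives). ANLN, anillin, which organises the contractile ring of dividing cells, was 2355, 2168 and 1301 in Dox- and 2779, 1426 and 2495 in Dox+ libraries (0.19, interval -0.52 to 0.90). Of 17 proliferation markers 0 were called by limma, with 0 at an unadjusted p under 0.05 and 0 called by edgeR or DESeq2.

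MCAM, MYOCD and CSRP2 are also genes of vascular cells, so markers of those cells stand here. Of 14 smooth muscle and pericyte markers outside the set, 8 were tested, 1 was called higher and 0 lower (limma, or 2 and 1 with the block, with 5 at an unadjusted p under 0.05, and 1 called by edgeR and 2 by DESeq2). Their summed level was 91313 to 118664 in Dox- and 66633 to 82541 in Dox+ libraries, and ACTA1 had 0 reads in all 6. The median log2 fold change of the 8 was -0.35. Without asking for a call, 2 had every Dox+ library below every Dox- library, and 1 had every one above. Over all tested genes these shares were 6.29% and 8.88%. The called one was RGS4, a brake on G-protein signals, with 0 reads in Dox- and 177, 100 and 47 reads in Dox+ libraries, at least 55.8-fold higher over 3 reads in each Dox- library. The pericyte gene RGS5 had 0 reads in Dox- and 6, 14 and 2 reads in Dox+ libraries.

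Of 9 endothelial markers, 4 were tested and 0 called in limma (1 at an unadjusted p under 0.05, 0 by edgeR and 1 by DESeq2), with a summed level of 1762 to 2585 in Dox- and 846 to 1475 in Dox+ libraries. Most of that sum was ERG, a transcription factor of endothelium and cartilage, at 1586, 2288 and 2358 in Dox- and 675, 1249 and 884 in Dox+ libraries. ERG did not pass without the block (-1.17, limma adjusted p = 0.065) and was lower with it (0.0042). The defining markers were low: CLDN5 had 0 reads in all libraries, CDH5 and EMCN had 6 and 2 reads in Dox- 1 and 0 in each other library, and KDR had 3 reads in the Dox- and 14 in the Dox+ group. PECAM1, VWF and TEK had estimates of -0.85, 0.07 and 0.13 and did not pass. Skeletal and cardiac muscle markers summed to 1512 to 6688 in Dox- and 5646 to 16444 in Dox+ libraries, with 0 of 9 tested called in limma (4 at an unadjusted p under 0.05, 0 by edgeR and 1 by DESeq2). In every library this sum was mostly DES, a gene that is also on the smooth muscle marker list. With the block ACTN2 and DES were higher and TNNI2, a troponin of fast muscle, was lower. Of these 19 markers 7 had no reads in any library, among them the muscle regulators MYOD1 and MYOG. Leukocyte markers summed to 256 to 526 in Dox- and 752 to 1614 in Dox+ libraries, with CD74 called higher among 4 tested. CD74 had a mean of 56.8 in Dox- and 515 in Dox+ libraries, and CD68, not called, had 232 and 374. The pan-leukocyte gene PTPRC had 3 reads in the Dox- and 1 in the Dox+ group. ITGAM had 0 reads in all libraries, and CD163 had 0 reads in the Dox- and 1 in the Dox+ group. Fibroblast markers summed to 1804300 to 1891690 in Dox- and 1370050 to 1632970 in Dox+ libraries, with 0 of 11 tested called in limma (6 at an unadjusted p under 0.05, 0 by edgeR and 5 by DESeq2). With the block 2 were higher, DPT (limma adjusted p = 0.0014) and LUM (0.027), and 2 were lower, THY1 (0.0049) and FAP (0.015). The median log2 fold change of these 11 fibroblast markers was -0.60. Without asking for a call, 4 had every Dox+ library below every Dox- library (COL1A1, COL1A2, PDPN and CD55), and 2 had every one above (DPT and LUM). Over all tested genes these shares were 6.29% and 8.88%. The part of such cells in the rise of MCAM, MYOCD and RGS4 was not tested.

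Dox- 3 was the library with the highest level in 20 of the 41 tested members (48.8%), against 23.9% of all tested genes. The 20 were all 4 actins, TAGLN, CNN2, MYL9, TPM1, TPM2, TPM3, CALD1, TLN1, ZYX, FLNA, LMOD1, SMTN, ACTN1, ACTN4, CSRP1 and SRF. Dox+ 2 was the lowest library in 14 members (34.1%, against 13.7% of all tested genes). Within same-numbered pairs, Dox+ was below Dox- in 16 members in pair 1, 23 in pair 2 and 26 in pair 3, and the median difference was 0.12, -0.08 and -0.35 (log2), while over all tested genes it was between -0.01 and 0.0024. In all 3 pairs alike, 14 members (34.1%) were lower and 9 (22%) higher, beside 19% and 19.5% of all tested genes, and 18 had mixed signs. The size of several lower estimates thus rested on pair 3: the difference was -0.87, -0.83 and -2.44 for CALD1 and -0.75, -1.08 and -2.06 for MYL9 in pairs 1, 2 and 3, and -0.08, -0.41 and -1.14 for TAGLN.

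**Figure D4:**
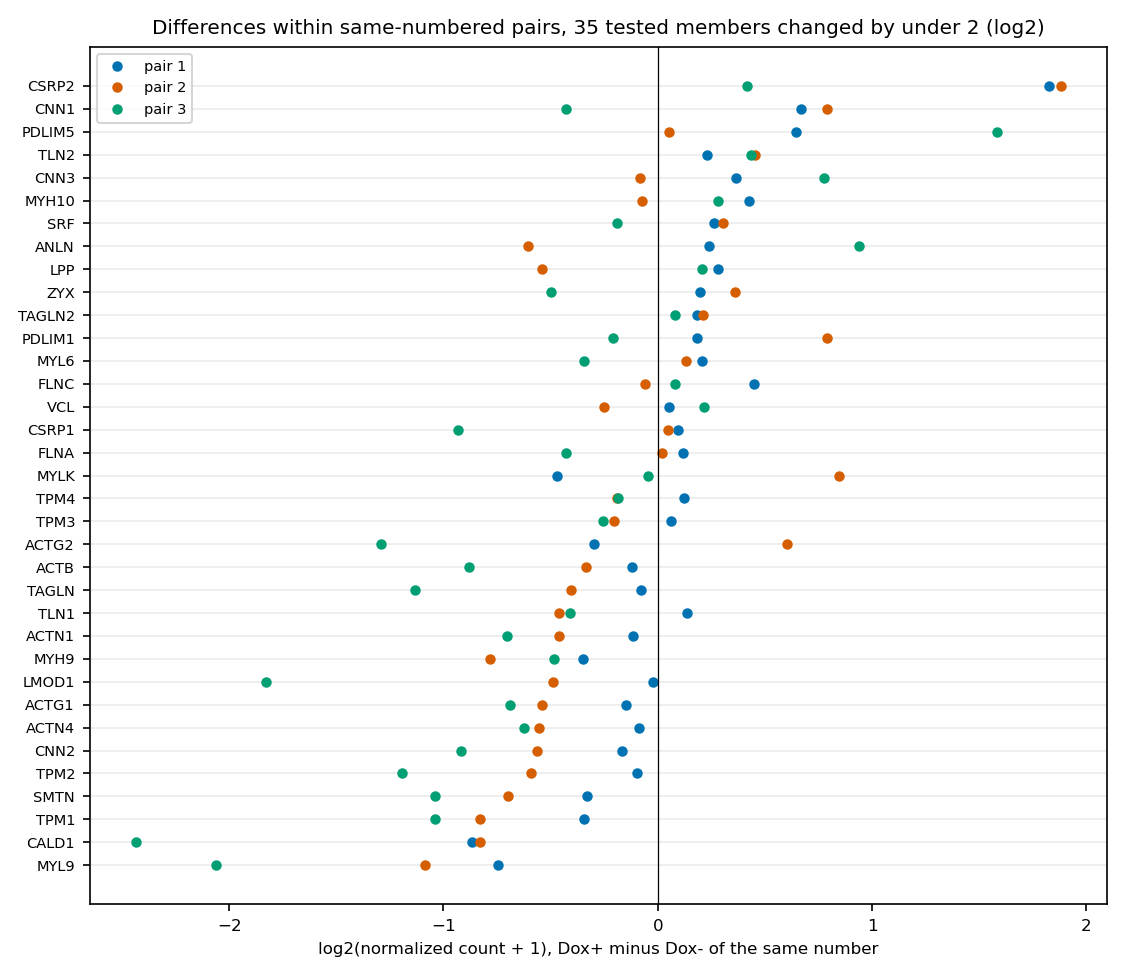
Difference of log2(normalized count + 1), Dox+ minus Dox- of the same number (horizontal axis), for the 35 tested members whose fold change was under 2 on the log2 scale, with 1 point for each of the 3 pairs. Pair 3 lies furthest to the left for most of the lower genes, such as CALD1 (-2.44) and MYL9 (-2.06), and pair 1 is the closest to 0 for most of them.

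Beyond the set, other genes of the same pathways were followed as lists. Of 27 tested SRF cofactors and targets, 0 were called in limma (6 at an unadjusted p under 0.05, 0 by edgeR and 0 by DESeq2), with a median of -0.11. The myocardin-related cofactors MRTFA and MRTFB had estimates of -0.09 and 0.10. FHL1 and DSTN, the actin-severing factor destrin, had the smallest p of the list (limma adjusted p = 0.13 and 0.20). With the block FHL1, a LIM-only muscle protein, fell (-0.75, limma adjusted p = 0.025), as did CCN2, a matrix factor under YAP and SRF control (-0.73, 0.035), while DES, the muscle intermediate filament desmin, rose (1.69, 0.0014). DES was 6373, 982 and 4224 in Dox- and 16005, 5150 and 10804 in Dox+ libraries, higher in each pair although the groups overlapped.

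Among 14 tested immediate early targets, DUSP6, a phosphatase that switches off ERK, rose (2.57, SE 0.49, limma adjusted p = 0.025), and the others did not pass, FOS (0.09) and EGR1 (0.62) among them. The list's median was 0.36, with 2 genes at an unadjusted p under 0.05 in limma, 0 called by edgeR and 1 by DESeq2. DUSP6 was not called by edgeR (adjusted p = 0.057), but was called by DESeq2 (3.2e-05) and by limma with the block (0.00041). It was 1166, 358 and 331 in Dox- and 4050, 1938 and 3693 in Dox+ libraries.

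Of 36 genes of filament turnover and branching 0 were called in limma (3 at an unadjusted p under 0.05, 0 by edgeR and 1 by DESeq2; median -0.04). With the block the bundling protein gene LCP1 (3.47) and the nucleator gene COBL (2.68) were higher and the severing protein gelsolin, GSN (-0.86), was lower. LCP1 rested on few reads (4, 0 and 1 in Dox- and 10, 17 and 21 in Dox+ libraries). COBL had 31, 3 and 1 reads in Dox- and 55, 105 and 4 in Dox+ libraries. The groups overlapped for COBL and GSN. Of 30 other focal adhesion genes 0 were called in limma (7 at an unadjusted p under 0.05, 0 by edgeR and 3 by DESeq2; median 0.02), and 3 were higher and 2 lower with the block. Of these, FBLIM1, migfilin, which links filamin to adhesions, had the smallest p (1.09, limma adjusted p = 0.063, and 0.0061 with the block), followed by ACTN2, a muscle alpha-actinin (3.33, 0.080). Without the block neither passed, and ACTN2 rested on 7 reads in the Dox- and 70 in the Dox+ group. With the block KANK1 was also higher (0.91, limma adjusted p = 0.042), while NEDD9 (-0.99, 0.019) and LIMS2 (-1.27, 0.047) were lower.

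The tested genes nearest to the 6 called members on the chromosome, by RefSeq's gene order in ARS-UCD2.0, were compared with them. Untested genes in between were passed over, so a neighbour here need not be adjacent or close. Of the 24 nearest tested neighbours, 2 on each side, 0 were called in limma (4 at an unadjusted p under 0.05, 0 by edgeR and 1 by DESeq2). CAV1 and CAV2 beside TES had -0.43 and 0.13, CBL beside MCAM 0.27, TMEM30A and SENP6 on the 2 sides of FILIP1 0.48 and 0.34, and ARHGAP44 and MAP2K4 beside MYOCD 0.11 and 0.09. With the block 3 neighbours passed, all higher. They were LIPA near ACTA2 (0.91), against the direction of ACTA2, and COL8A1 (1.25, limma adjusted p = 0.071, or 0.0039 with the block) and DCBLD2 (1.35) on the same side of FILIP1L.

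The authors' deposited table gave an adjusted p under 0.05 to 11 of the 42 members with an adjusted p, 6 higher and 5 lower, where 7.3% of all genes with an adjusted p passed. To the 9 members called with or without the block it added TPM1 (log2 fold change -0.66, adjusted p = 0.012) and SMTN (-0.60, adjusted p = 0.030), both from the authors' deposited table. For ACTA2 the authors' deposited table gave -1.99 (adjusted p = 7.8e-13), for MYL9 -1.19 (5.4e-05), for CALD1 -1.24 (9.4e-05) and for CSRP2 1.27 (3.2e-05).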

How the data were processed

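RNA-seq of 6 libraries was analysed from a table of normalized counts per gene, the signal values that the authors deposited with their own log2 fold changes and p-values. The submitters' processing notes name STAR 2.5.2b, Salmon, DESeq2, FastQC 0.11.3 and MultiQC 1.2, with builds ARS-UCD1.2 and bosTau9. The strand setting and annotation used were not given in the sources used here. Values stepped by whole reads, and 100% came out whole within 0.01, so reads were recovered for edgeR and DESeq2.

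Groups were compared with limma 3.58.1 in R 4.3.3 (trend, two-sided) on log2(normalized count + 1) computed from the authors' deposited values. Genes had a mean of at least 10, group was the only term, and Benjamini-Hochberg adjustment ran over all 13180 tested genes with a threshold of 0.05. Alternatives were a replicate block, pseudocounts of 0.5 and 5, no filter or a mean of 50, TMM scaling, edgeR 4.0.16, DESeq2 1.42.0 (both also with the block), no trend, and leaving out each library. The block with the libraries of 1 number left out was added after seeing the data. Scripts were tested on simulated data.

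Same-numbered libraries deviated together from their group means (correlations 0.646, 0.443 and 0.212), so the numbers were taken as pairs. Dox- libraries against Dox+ libraries of another number gave -0.59 to -0.0034 for number 1 and -0.286 to -0.226 for number 2. For number 3 they gave -0.386 to 0.183, so its own partner stood out little. Deviations from a group mean cancel out within the group, so a positive value for the partner pulls the others negative on average. The values for other numbers are therefore no separate evidence of pairing. The labels name 3 knees without tying a number to each, and p-values measure the spread between these libraries. No libraries of a group were alike within sampling noise (chi-square per degree of freedom at least 54.8). Intervals on reads are 95% exact intervals of counting error.

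Members and lists were chosen with earlier results of these data known. Values in each library are given for called members and for ACTA2, TAGLN, CNN1, MYL9, MYH11, TPM1, ACTB, FILIP1, FILIP1L, SRF and MYOCD. In a pathway list, the called genes or, with none, the 2 with the smallest p are named. Genes named in the cell marker lists, and any other gene named, were chosen after their values were seen. Gene order and overlaps come from RefSeq's positions in ARS-UCD2.0, another build than the submitters', and no coordinates or distances from it are given. One list of pathway genes is not reported here.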

Additional observations from a re-analysis of the deposited data

How the results depend on the processing

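ACTA2, TES, FILIP1 and MCAM kept their call and direction under all 20 alternatives. FILIP1L lost its call under 5 and MYOCD under 1, as given above. With the replicate block, genes called over the whole table went from 332 to 640 higher and from 47 to 218 lower, and members called lower from 1 to 3; apart from MYL9, CALD1 and CSRP2, it changed no other call among the members. The respective counts were 542, 159 and 4 with DESeq2, 591, 190 and 3 with edgeR and the replicate block, and 743, 306 and 5 with DESeq2 and the replicate block. Without limma's trend 23 genes were lower. The share of calls that were higher was 87.6% in limma, 74.6% with the block, 77.3% with DESeq2 and 70.8% with DESeq2 and the block. The replicate block without replicate 1, 2 or 3, chosen after seeing the data, gave 602, 934 and 917 genes higher, 188, 276 and 537 lower, and 4, 3 and 6 members lower. Leaving out 1 library at a time gave 139 (without Dox+ 3) to 365 (without Dox- 1) genes higher and 9 (without Dox+ 3) to 72 (without Dox- 1) lower. It gave 3 (without Dox+ 3) to 6 (without Dox- 3) members higher and 1 lower each time. The members' median log2 fold change ran from -0.202 (without Dox- 2) to -0.00407 (without Dox- 3), and the estimate of CNN1 from -0.233 (without Dox- 2) to 0.756 (without Dox- 3). The cause of these shifts was not tested. MYH11, SYNPO2 and PDLIM3 had few reads and lay under the filter, and no further member was called without the filter. The Dox- levels of FILIP1 and MYOCD rest on 1 and 6 reads.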
